A study of Mus musculus with 6 samples.

Results

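The sialic acid binding receptors Cd33, Siglec1, Siglece, Siglecf, Siglecg and Siglech were chosen by gene symbol from the table of estimated counts, and all 6 were found among its 17469 genes. Siglecs are receptors on the surface of white blood cells that bind sialic acids, the sugars that cap many glycans of mammalian cells. Most of them carry tyrosine motifs in their tail through which sialylated ligands restrain the cell that bears the receptor. Siglec-E, Siglec-F and Siglec-G work in this way, recruiting the phosphatases SHP-1 and SHP-2, whereas Siglec-H signals through the adaptor DAP12 and Siglec-1 (sialoadhesin, CD169) acts mainly in adhesion and capture. CD33 is best known from human genetics, where its gene is tied to the risk of Alzheimer's disease through microglia.

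RNA-seq was done on tdTomato+ cells sorted from bone marrow stromal cell (BMSC) cultures of 6-month-old (6-MO) mice. The control was OCN-Cre;Ai9 (labelled Ocn-Cre;Ai9) and the mutant was TgAPPsweOCN;Ai9 (labelled TgAPPswe;Ocn-Cre;Ai9), with 3 libraries of each and no treatment. Both genotypes carried Cre under the osteocalcin promoter and Ai9, a reporter allele that yields tdTomato after Cre has acted, on a C57BL/6 background. Only the mutant also carried human APPswe, the Swedish mutant amyloid precursor protein, under the CAG promoter behind a stop cassette that Cre removes. OCN-Cre also acts in some neurons. The paper's figure that holds these data gives n = 3 mice for its values, without saying that this covers the sequencing. How many mice stood behind each library was thus not given in the sources used here. Replicates were therefore compared as libraries, and their spread may be partly technical.

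Estimated counts summed to between 19340810 and 22037840 per library, so that 3 counts, taken as the floor of detection, equalled 0.136 to 0.155 CPM, the share of a library's counts scaled to a fixed total. This floor covers counting error only. Levels are given as FPKM (fragments mapped to a transcript, scaled by its length and by the library's total), which allows comparison between genes. Genotypes were compared with edgeR's quasi-likelihood test on counts scaled by the TMM method, over the 12701 genes with enough counts. Genes were called up- or down-regulated when the p adjusted by Benjamini-Hochberg reached 0.05 and the level at least doubled or halved (1 on the log2 scale), a rule that 18.1% of all tested genes met. App had 279 ± 3.5 FPKM in control and 330 ± 4.18 in TgAPPsweOCN;Ai9 libraries (mean ± SD, n = 3, log2 fold change 0.45, edgeR adjusted p = 7.87e-05). These are values of the mouse gene from reads mapped to the mouse genome, so they do not measure the human transgene separately.

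The sorted cells carried far more RNA of macrophage than of osteoblast-lineage markers. The summed FPKM of 15 macrophage and myeloid markers ran from 16973 to 17648 in control and from 14601 to 18238 in TgAPPsweOCN;Ai9 libraries. For 15 osteoblast-lineage and stromal markers it ran from 1121 to 1210 and from 642 to 903, most of it Spp1, which encodes osteopontin and which macrophages also express. Without Spp1, the list summed to between 209.63 and 251 FPKM in control and between 161 and 231 in the mutant, so that the genotypes overlapped. Of the 14 tested genes of the whole list, Spp1 among them, by adjusted p alone 3 were higher and 4 were lower, beside 32.5% and 31.5% of all tested genes. The higher genes were Alpl, Dcn and Lum, and Lum (0, 1 and 0 counts in control) reached the test only through its mutant libraries. The lower genes were Sp7 (log2 fold change -0.78), Pdgfrb (-0.55), Spp1 (-0.54) and Sparc (-0.39). Siglecs are receptors of the former kind of cell, so the levels below describe the sorted population as a whole. In such bulk samples fewer cells of a type and less RNA per cell cannot be told apart.

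Siglec1 lies on chromosome 2 and the other 5 genes lie on chromosome 7, by the GENCODE M21 annotation of mm10 (GRCm38), the build in the labels. Siglece (chr7:43651070-43660161) and Cd33 (chr7:43524216-43544428) are both on the minus strand and are 107 kb apart. Siglecf (chr7:43351341-43359531) and Siglecg (chr7:43408204-43418358) lie on the plus strand of the same cluster, while Siglech (chr7:55768178-55778925) stands apart. Siglec1 (chr2:131069220-131086765) is read from the minus strand. All 6 are annotated as protein-coding, none overlaps another annotated gene, and none had a fractional estimated count in any library.

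The promoters of Siglece, Cd33 and Siglecf are shown because these neighbours in the cluster differed in how they moved between the genotypes. Each run is the 250 bases before the RefSeq start site (GRCm38.p6), 5′ to 3′ on the strand of the gene, with capitals marking GAGGAA, the core of a PU.1-type ETS site, on either strand.
Siglece (chr7:43660162-43660411, minus strand): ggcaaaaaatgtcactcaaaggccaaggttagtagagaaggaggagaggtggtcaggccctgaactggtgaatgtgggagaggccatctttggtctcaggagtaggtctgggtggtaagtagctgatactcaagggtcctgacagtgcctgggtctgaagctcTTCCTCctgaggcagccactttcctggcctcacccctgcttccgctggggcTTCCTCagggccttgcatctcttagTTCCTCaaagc
Cd33 (chr7:43533172-43533421, minus strand): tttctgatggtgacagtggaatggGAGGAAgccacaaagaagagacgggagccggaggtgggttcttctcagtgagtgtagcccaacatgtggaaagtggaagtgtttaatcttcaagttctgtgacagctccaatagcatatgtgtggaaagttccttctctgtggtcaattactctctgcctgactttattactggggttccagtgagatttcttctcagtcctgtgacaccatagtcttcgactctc
Siglecf (chr7:43351091-43351340, plus strand): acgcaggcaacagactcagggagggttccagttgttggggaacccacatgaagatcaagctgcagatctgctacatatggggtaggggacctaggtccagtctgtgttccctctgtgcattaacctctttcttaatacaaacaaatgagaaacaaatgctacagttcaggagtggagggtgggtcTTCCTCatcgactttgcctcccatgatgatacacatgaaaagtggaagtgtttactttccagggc

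By GENCODE, the windows of Siglece and Siglecf end where the annotated genes begin. That of Cd33 lies within its annotated gene (chr7:43524216-43544428), so its RefSeq start is not the outer end of that gene. The window of Siglece held 3 matches to GAGGAA, that of Cd33 held 1 and that of Siglecf held 1. Among 32851 mouse promoter windows of the same length, 23.3% held at least 1 match, so these letters are common. The interferon-stimulated response element, the AP-1 site (TGANTCA) and an NF-kB site had no match in the 3 windows on either strand. Those motifs were present in 2.98%, 6.75% and 1.41% of all windows. The promoters of Cd33 and Siglecf shared a run of 16 bases, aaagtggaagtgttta, which began 157 bases before the start of Cd33 and 27 bases before that of Siglecf. No other gene among the 32851 windows held it. Of the 6 genes, 5 had a promoter entry in RefSeq's table.

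Of the 6 genes, Siglece had the largest rise in TgAPPsweOCN;Ai9 cells. Siglec-E is an inhibitory receptor of mouse macrophages, monocytes and neutrophils. Its FPKM was 21.35, 16.4 and 16.79 in control and 360.61, 364.55 and 363.05 in TgAPPsweOCN;Ai9 libraries, so that the genotypes did not overlap. Estimated counts rose from between 550 and 706 to between 13528 and 13733. The log2 fold change was 4.55 (standard error 0.107, 95% interval 4.31 to 4.80, edgeR adjusted p = 2.3e-08), a 23.5-fold difference in level. It was the 89th largest rise among all tested genes. The 3 TgAPPsweOCN;Ai9 libraries spread by no more than counting noise, with a chi-square per degree of freedom of 0.499, against 12.9 in control and a median of 2.33 over all tested genes in the mutant libraries. Its level passed from percentile 66.2 of tested genes in control to percentile 98.4.

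Siglec1, the adhesion receptor of tissue-resident and interferon-exposed macrophages, was the other strong rise. Its FPKM was 31.06, 16.99 and 23.87 in control and 88.89, 129.67 and 114.53 in TgAPPsweOCN;Ai9 libraries. The lowest mutant library was thus well above the highest control library. The log2 fold change was 2.42 (standard error 0.214, 95% interval 1.93 to 2.91, edgeR adjusted p = 1.98e-05), a 5.35-fold difference. Siglec1 also varied most beyond counting noise, with a chi-square per degree of freedom of 256 among control and 512 among mutant libraries. Replicate 1 was highest and replicate 2 lowest among the control libraries, while replicate 2 was highest and replicate 1 lowest among the mutant libraries.

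Cd33 moved the other way. Its FPKM was 19.32, 16.58 and 20.6 in control and 5.47, 5.96 and 5.89 in TgAPPsweOCN;Ai9 libraries, again without overlap. Estimated counts fell from between 818 and 981 to between 298 and 325. The log2 fold change was -1.49 (standard error 0.0885, 95% interval -1.70 to -1.29, edgeR adjusted p = 2.12e-06), which makes Cd33 2.81-fold lower in the mutant. It ranked 478th among the falls of all tested genes.

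The remaining members were scarce. Siglecf, the inhibitory receptor that marks eosinophils and alveolar macrophages, had 0.5, 0.86 and 0.78 FPKM in control and 1.11, 1.34 and 1.28 in TgAPPsweOCN;Ai9 libraries. These values came from 24 to 42 and from 60 to 72 estimated counts and did not overlap. The log2 fold change of 1.01 (standard error 0.232, 95% interval 0.48 to 1.54, edgeR adjusted p = 0.0047) passed the fold change threshold by a small margin. Scaling by library size only gave 0.80, and leaving out control replicate 1, mutant replicate 2 or mutant replicate 3 gave 0.80, 0.97 and 0.997, so its place among up-regulated genes rests on the scaling and on single libraries.

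Siglecg, an inhibitory receptor best known from B cells, had 0.72, 0.72 and 0.29 FPKM in control and 0.42, 0.39 and 0.42 in TgAPPsweOCN;Ai9 libraries. The mutant values lay within the range of the control values. The log2 fold change was -0.11 with a 95% interval from -0.85 to 0.62 (edgeR adjusted p = 0.773), so a difference of either sign was not detectable at 11 to 22 counts per library. Siglech, a receptor of plasmacytoid dendritic cells and microglia, had 7, 2 and 1 counts in control and 0, 3 and 0 in TgAPPsweOCN;Ai9 libraries. Of the 6 libraries, 5 were at or below the floor of 3 counts, Siglech was not tested, and no fold is given.

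**Figure D1:**
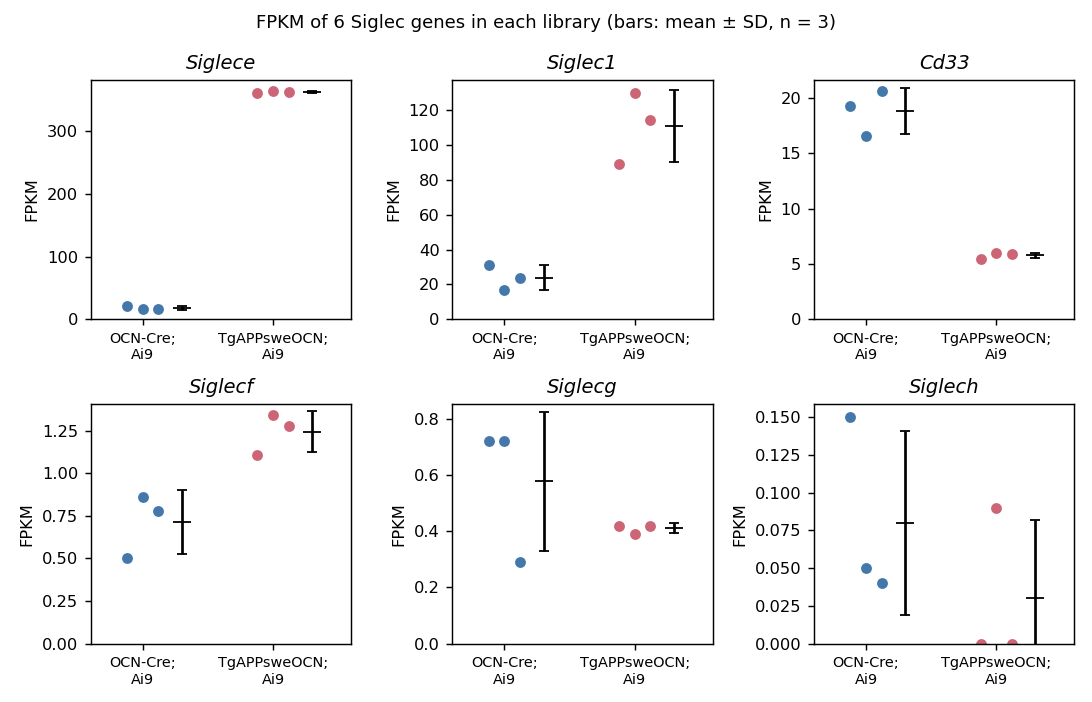
FPKM (linear axis from 0, a different scale in each panel) of the 6 Siglec genes in 3 OCN-Cre;Ai9 and 3 TgAPPsweOCN;Ai9 libraries, with each library as a point and the mean ± SD beside it (the lower bar of Siglech in the mutant ends at 0). Siglece sits between 360.61 and 364.55 FPKM in the mutant libraries, Siglec1 is higher and Cd33 lower in all mutant libraries, and the values of Siglecg and Siglech overlap.

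Of the 5 tested members, 3 were up-regulated (Siglece, Siglec1 and Siglecf), against 8.9% of all tested genes, and 1 was down-regulated (Cd33), against 9.2%. The balance over all tested genes, 1130 higher and 1169 lower, depends on the scaling, since library size only gave 846 and 1732. The 5 genes had at least 11 counts in every library, so none reached the test through a single genotype. FPKM did not overlap between the genotypes for 4 of them, which was also the case for 72.3% of all tested genes (24.0% higher and 48.3% lower in the mutant, before TMM scaling). Each of these 4 gave an exact permutation p of 0.1 (two-sided, on mean FPKM), the smallest that 3 libraries against 3 allow.

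**Figure D2:**
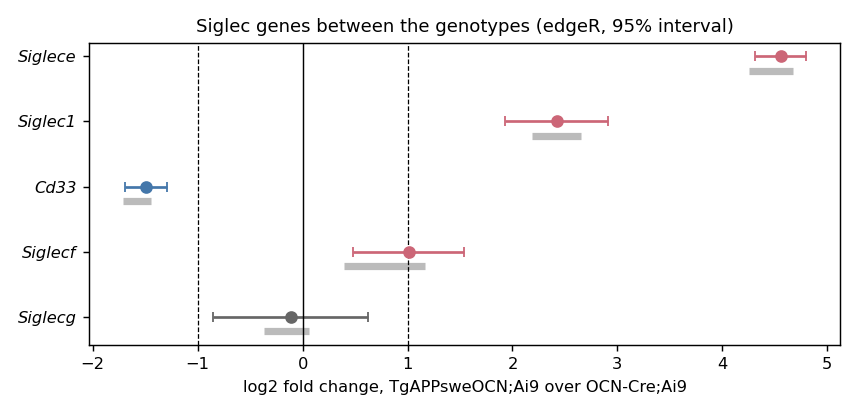
Log2 fold change of the 5 tested Siglec genes between the genotypes (points, with 95% intervals from edgeR; red up-regulated, blue down-regulated, dark grey neither), with light grey bars for the lowest and highest value over 14 alternatives and dashed lines at a log2 fold change of 1 in either direction. Siglece, Siglec1 and Cd33 stay beyond the dashed lines, Siglecf straddles the line and Siglecg spans 0.

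In control cells Siglec1, Cd33 and Siglece stood at similar levels per length, with means of 24.0 ± 7.04, 18.8 ± 2.05 and 18.2 ± 2.75 FPKM, and neighbours in this order overlapped. Siglecf (0.713 ± 0.189) and Siglecg (0.577 ± 0.248) overlapped each other and lay far below them. In TgAPPsweOCN;Ai9 cells the order became Siglece (363 ± 1.99), Siglec1 (111 ± 20.6), Cd33 (5.77 ± 0.265), Siglecf (1.24 ± 0.119), Siglecg (0.41 ± 0.0173) and Siglech, and no neighbours overlapped.

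The mix of Siglec transcripts therefore differed between the genotypes. Summed over the 6 genes, FPKM was 62.4 ± 10.8 in control and 481 ± 23.0 in TgAPPsweOCN;Ai9 libraries. Siglece made up 29.3% ± 2.43 of this sum in control and 75.5% ± 3.24 in the mutant. The share of Cd33 was 30.5% ± 3.58 in control and 1.2% ± 0.0134 in the mutant, and that of Siglec1 was 37.9% ± 4.79 and 23.0% ± 3.23. Without Siglece, the other 5 genes summed to 44.2 ± 8.36 and 118 ± 21.0 FPKM.

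**Figure D3:**
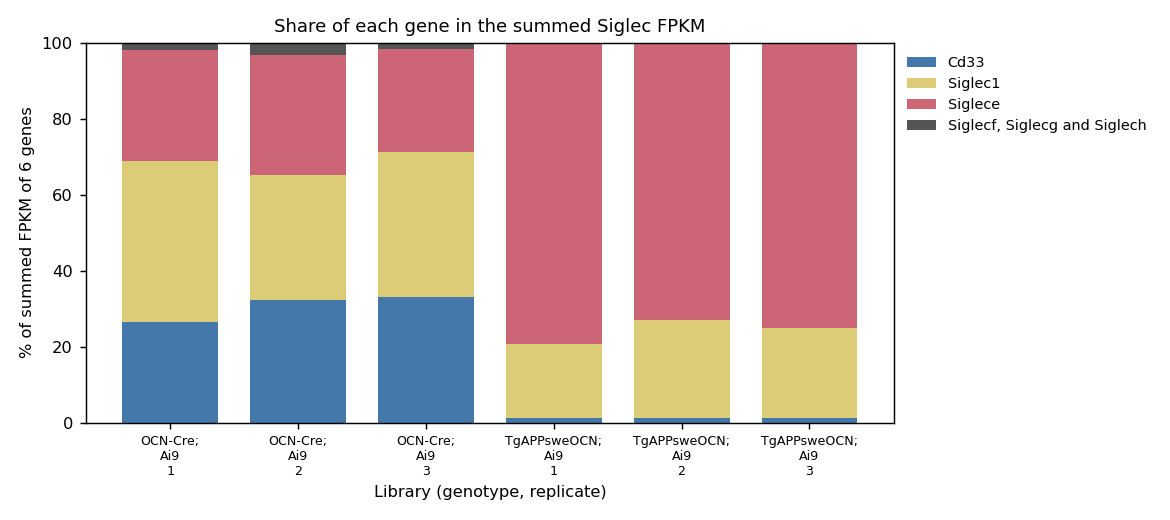
Share of each gene in the summed FPKM of the 6 Siglec genes (bars, % from 0 to 100) in each library of either genotype. Cd33, Siglec1 and Siglece each hold between 26.4% and 42.5% of the control sum, whereas Siglece holds 72.6% to 79.0% and Cd33 1.19% to 1.21% in the mutant libraries.

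Ratios between members within a library do not depend on how libraries are scaled. Relative to the FPKM of Cd33, that of Siglece was 1.11, 0.989 and 0.815 times as high in control and 65.9, 61.2 and 61.6 times as high in TgAPPsweOCN;Ai9 libraries. This is a shift of 65.3-fold in the ratio. The ratio of Siglec1 to Cd33 went from between 1.02 and 1.61 to between 16.3 and 21.8. Siglece also gained on Siglec1, from 0.687, 0.965 and 0.703 times its FPKM to 4.06, 2.81 and 3.17 times. Cd33 exceeded Siglecf by between 19.3 and 38.6 times in control and by between 4.45 and 4.93 times in the mutant. None of the 6 ratios among these 4 genes overlapped between the genotypes, and each had an exact permutation p of 0.1 (two-sided, on log2 ratios), the smallest possible.

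Beyond these 6, mouse Siglec family genes include Mag, the myelin-associated glycoprotein, Cd22, a B cell inhibitory receptor, and Siglec15, a DAP12-coupled receptor of osteoclasts. Mag rose from 1.6, 1.26 and 1.2 FPKM to 5.52, 6.85 and 6.2 (log2 fold change 2.40, edgeR adjusted p = 1.93e-06). Cd22 overlapped between the genotypes (2.17 ± 0.0954 and 2.10 ± 0.524 FPKM, edgeR adjusted p = 0.509) and had fractional counts in some libraries. Siglec15 had 0 to 4 counts per library and was not tested.

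Partners in Siglec signalling were next described as a list of 20 genes, of which 19 were tested. The list comprised adaptors, phosphatases, kinases of the Src and Syk families and their regulators. The median log2 fold change over the 19 was 0.55, against -0.02 for all tested genes. Of the 19, 6 were up-regulated and 0 down-regulated, against 8.9% and 9.2% of all tested genes. They included the Src-family kinases Fgr (log2 fold change 1.83) and Lyn (1.23), the kinase Syk (1.53), the exchange factor Vav1 (78.2 ± 0.581 FPKM in control and 155 ± 1.90 in the mutant) and the cytokine-signalling inhibitor Socs3 (1.68). Of these, Lyn and Vav1 had fractional counts in some libraries. By adjusted p alone, which 64.0% of all tested genes met (32.5% higher and 31.5% lower), 14 of the 19 were higher and 2 lower, as they were at an unadjusted p under 0.05, and DESeq2 and limma called 0 down-regulated.

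The phosphatases that read the tyrosine motifs rose in the adjusted test but stayed short of the fold threshold. Ptpn6, which encodes SHP-1, had 235.5 ± 14.6 FPKM in control and 290 ± 3.14 in mutant libraries (log2 fold change 0.52, edgeR adjusted p = 0.000133), and Ptpn11, which encodes SHP-2, had 17.0 ± 0.428 and 24.5 ± 0.807 (0.74, adjusted p = 6.87e-06). Inpp5d, which encodes SHIP-1, had a log2 fold change of -0.06 (adjusted p = 0.383). Of the listed adaptors, Tyrobp and Hcst were lower. Grb2 had a log2 fold change of 0.26 (adjusted p = 0.00272), but its FPKM, which is not scaled by TMM, overlapped between control (127.5 to 138) and mutant libraries (133 to 139). Tyrobp, which encodes DAP12, had 1673 ± 107 FPKM in control and 1045 ± 61.1 in mutant libraries (-0.46, adjusted p = 0.000778). Hcst, which encodes DAP10, had 15.6 ± 1.33 and 7.91 ± 1.38 (-0.76, adjusted p = 0.00515).

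Genes that make the ligands were then listed, from sialic acid synthesis to sialyltransferases. Of 26 genes, 25 were in the files and 18 were tested, with a median log2 fold change of -0.05. Of the 18, 3 were up- and 4 down-regulated, against 8.9% and 9.2% of all tested genes. The entry and activation steps did not pass the test. Gne, the entry enzyme of sialic acid synthesis, had a log2 fold change of -0.05 (edgeR adjusted p = 0.679) and Cmas, which activates sialic acid for transfer, one of -0.03 (adjusted p = 0.766). The down-regulated genes were St6gal1, St8sia4, St6galnac3 and St6galnac6. St6galnac3 (17, 11 and 17 counts in control and 5, 3 and 2 in the mutant) reached the test only through its control libraries, and 3 genes were down-regulated when at least 10 counts were required in every library. St6gal1, which adds α2,6-linked sialic acid to galactose, fell from 42.6 ± 1.04 FPKM to 7.90 ± 0.452 (log2 fold change -2.20, adjusted p = 6.64e-08). St8sia4, a polysialyltransferase, fell from 14.2 ± 1.69 to 1.98 ± 0.254 (-2.67, adjusted p = 5.58e-07).

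The up-regulated sialyltransferases were St3gal1, St3gal6 and St6galnac2. St3gal1 and St3gal6 add α2,3-linked sialic acid. St3gal1 rose from 20.4 ± 1.10 FPKM to 51.6 ± 5.84 (log2 fold change 1.57, edgeR adjusted p = 2.7e-06), with fractional counts in some libraries, and St3gal6 rose from 3.01 ± 0.421 to 6.75 ± 0.234 (1.36, adjusted p = 2.46e-05). St6galnac2 had overlapping values (0.98 ± 0.614 and 5.47 ± 4.46 FPKM, log2 fold change 2.69, adjusted p = 0.0166). Of 8 genes of sialic acid removal, 6 were tested, with 0 up- and 1 down-regulated by edgeR, against 8.9% and 9.2% of all tested genes. DESeq2 and limma also called 0 up-regulated, and 2 were higher and 3 lower at an unadjusted p under 0.05. The summed FPKM of the list was 673 to 713 in control and 385 to 398 in the mutant. Most of it was Ctsa (534 ± 13.2 and 279 ± 6.50 FPKM, log2 fold change -0.72), which had fractional counts. The down-regulated gene was Npl, the sialic acid lyase (2.56 ± 0.0907 and 0.88 ± 0.234 FPKM, log2 fold change -1.33, adjusted p = 0.00093). Neu1, the lysosomal sialidase, had a log2 fold change of 0.27 (adjusted p = 0.00169).

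**Figure D4:**
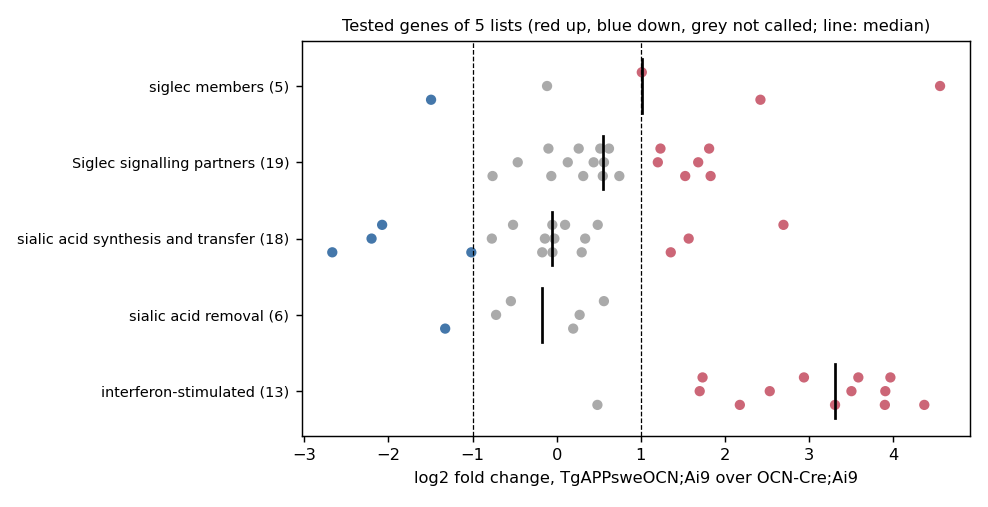
Log2 fold change between the genotypes for the tested genes of 5 lists (number tested in brackets), with up-regulated genes in red, down-regulated genes in blue, other genes in grey, the median as a vertical line and dashed lines at 1 in either direction. The interferon-stimulated genes lie at or above a log2 fold change of 0.48 with a median of 3.31, while the sialic acid lists spread to both sides of 0.

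Siglec1 is also known as an interferon-induced gene, so its values were set beside a list of interferon-stimulated genes. Of 15 listed genes, 13 were in the files and tested, and 12 were up-regulated, against 8.9% of all tested genes. Their summed FPKM, in the order of replicates, was 342, 186 and 242 in control and 1523, 1889 and 1684 in TgAPPsweOCN;Ai9 libraries. In control, all 13 genes were highest in replicate 1 and lowest in replicate 2, as Siglec1 was. In the mutant, 11 of the 13 had the same order of libraries as Siglec1. Over all tested genes, 20.9% had this order in control, 30.9% had it in the mutant and 7.45% had both, among them the neutrophil gene Mpo and the stromal gene Cxcl12. The listed genes share their libraries with Siglec1, and the part of interferon in its rise was not tested.

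The genes with the most similar profile over the 6 libraries were found by the root mean square distance between centred log2 CPM values. This distance mostly reflects the size of the genotype difference. For Cd33 they were Slc9a9, an endosomal sodium-proton exchanger (distance 0.053), and Ajm1 (0.053). Ajm1 was scarce, with mean FPKM of 0.227 in control and 0.0567 in mutant libraries (edgeR log2 fold change -1.77), and at such levels the prior count of 2 also shapes the profile. For Siglece they were Fpr1, the formyl peptide receptor of phagocytes (0.107), and Rims3 (0.129), and for Siglec1 they were Iigp1, an interferon-inducible GTPase (0.0609), and Hp, which encodes haptoglobin (0.129). Fpr1 had 15.0 FPKM in control and 284.5 in mutant libraries, close in size to Siglece. Siglecf was nearest to Uba6 (0.0916) and Fam102a (0.104), and Siglecg to Klrg2 (0.0805) and Znrd1as (0.104).

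Cells that are defined by single Siglecs were looked for through their other markers. Of 8 eosinophil markers, 5 were in the files. Epx and Prg2, the granule proteins that define eosinophils, had mean FPKM of at most 0.01 and 0.16 in either genotype, while the chemokine receptor Ccr3 had 2.79, 2.61 and 2.43 in control and 33.89, 37.31 and 34.37 in TgAPPsweOCN;Ai9 libraries. The list summed to between 2.63 and 3.13 FPKM in control and between 34.0 and 37.7 in the mutant, nearly all of it Ccr3. Siglecf had at most 1.34 FPKM beside it.

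Neutrophil markers, 10 of 10 in the files, summed to between 18.5 and 59.1 FPKM in control and between 22.8 and 55.7 in mutant libraries. Of the 9 tested, 1 was up-regulated, against 8.9% of all tested genes. This was Camp (0.453 ± 0.389 and 3.23 ± 1.43 FPKM), which reached the test only through its mutant libraries. Ly6g, which defines neutrophils, had a mean of 0 in control and 0.04 in the mutant. The summed level of the neutrophil list overlapped between the genotypes. The macrophage and myeloid list split into 5 up- and 6 down-regulated genes of 15, against 8.9% and 9.2% of all tested genes.

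B cell markers, 6 of 8 in the files, summed to between 1.99 and 3.01 FPKM in control and between 4.07 and 4.73 in mutant libraries. T and NK cell markers, 4 of 6 in the files, summed to at most 0.15 FPKM in any library. Markers of plasmacytoid dendritic cells, 7 of 8 in the files, summed to between 218 and 347 FPKM in control and between 685 and 750 in the mutant. Most of this was Bst2, an interferon-induced gene that macrophages also express (234 ± 62.9 and 692 ± 30.7), and Ccr9 had a mean of at most 0.0733. The transcription factor gene Spib was also up-regulated, with 0, 0 and 3 counts in control and 37, 27 and 28 in the mutant, through which alone it reached the test, while Tcf4 was lower (log2 fold change -0.85, edgeR adjusted p = 2.25e-05). The part of any of these cells in the changes of Siglece, Siglec1, Siglecf and Cd33 was not tested.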

How the data were processed

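RNA was taken from sorted tdTomato+ BMSCs, and the libraries were sequenced on a DNBSEQ platform. Before mapping with HISAT2, the authors discarded reads from rRNA, adaptors and poor base calls. The submitters' processing notes name HISAT2 2.0.4, Bowtie2 2.2.5, RSEM 1.2.12, DESeq2 1.4.5 and mm10. The authors deposited estimated counts per gene and library, which are not scaled, and FPKM values rounded to 2 decimals, without pooling replicates. A further deposited table repeats FPKM values and adds the authors' own log2 ratio and p-value, which were not used. Between 13.3% and 14.4% of genes in a library had a fractional estimated count, so reads shared between gene copies were divided by estimation. Whether counting used strand was not given in the sources used here.

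Estimated counts were rounded, filtered (filterByExpr), scaled by TMM and fitted over the whole table with genotype as the only term (glmQLFit and glmQLFTest of edgeR 4.0.16, R 4.3.3), with standard errors taken from the F statistic. Depth was 19340810 to 22037840 counts per library. Log2 CPM for profile distances used a prior count of 2. FPKM is scaled by library and not by TMM, so a ratio of mean FPKM is lower than the edgeR fold. The library orders over all genes and the sum without Spp1 were added after seeing the data. The procedure was tested on simulated data. Alternatives were DESeq2 1.42.0, RLE factors, library size only, other filters, a replicate block, limma 3.58.1 on log2(FPKM + 1) or log2(FPKM + 0.1), no fold change threshold, and leaving out each library. Tables and plots were made in Python 3.11.15 with pandas 2.3.3, scipy 1.17.1 and matplotlib 3.10.9.

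Named genes follow a rule. They are all 6 members, each called gene of the Siglec signalling and sialic acid lists with Tyrobp, Ptpn6, Ptpn11, Syk, Gne, Cmas and Neu1, and the 2 genes with the nearest profile to each tested member. Inpp5d, Hcst, Grb2, Ctsa and the single marker genes were named after their values were seen. Some items are not reported here. The members and lists were chosen with earlier results of these data known.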

Additional observations from a re-analysis of the deposited data

How the results depend on the processing

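Cd33 (-1.71 to -1.44), Siglec1 (2.19 to 2.65) and Siglece (4.25 to 4.68) kept their direction and their call under all 14 alternatives. Siglecf fell below the fold change threshold with library size only (0.80), limma on log2(FPKM + 0.1) (0.75) and limma on log2(FPKM + 1) (0.39), which understates changes of low genes. Leaving out each library in turn gave Siglecf 0.80 to 1.17 and Siglecg -0.37 to 0.0598. Siglecg reversed to 0.0598 without control replicate 2, and its adjusted p ran from 0.28 to 0.963 over all alternatives. Between 2 and 3 members were up-regulated and 1 was down-regulated under every alternative. Library size only shifted the median over all tested genes from -0.02 to -0.23 (log2) and gave 846 genes higher and 1732 lower, and limma on log2(FPKM + 0.1) gave 811 and 1510, against 1130 and 1169.

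Without the fold change threshold 4122 genes were higher and 4007 lower, and limma on log2(FPKM + 1) called 593 higher and 845 lower. Without that threshold the signalling list had 14 higher and 2 lower, the sialic acid synthesis and transfer list 6 higher and 6 lower, and the removal list 2 higher and 3 lower. Limma on log2(FPKM + 1) left 1 gene higher in the synthesis and transfer list and 0 lower in the removal list, and no filter beyond 1 count gave 5 higher in the former.

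Same-numbered libraries did not deviate together for every pair (Pearson r across genes of 0.0127, 0.00664 and 0.141), so the numbers were not taken to pair them. With the replicate block, the log2 fold changes were -1.49 for Cd33, 2.45 for Siglec1, 4.56 for Siglece, 1.03 for Siglecf and -0.09 for Siglecg, with no call changed among them, and 1115 genes were called higher and 1147 lower. Only control replicate 3 correlated best with its own number. Depth limits Siglecg and Siglech, and RNA of sorted cells cannot assign a Siglec to a cell type.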

Other observations

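Between the outer ends of Siglecf and Siglece, a stretch of 309 kb on chromosome 7, the files held 10 genes other than the 4 Siglecs. Of these, 5 had enough counts to be tested, and 2 were up-regulated in TgAPPsweOCN;Ai9 cells (Ceacam18 and Zfp719), against 8.9% of all tested genes. Ceacam18 reached the test only through its mutant libraries, so its count among the rises was partly fixed by the filter. This gene, next to Siglece, had 0, 2 and 2 estimated counts in control and 69, 69 and 58 in TgAPPsweOCN;Ai9 libraries. Its strand is opposite to that of Siglece, and whether counting used strand was not given in the sources used here. Zfp719, a zinc finger gene between Cd33 and Siglece, had 1.87, 1.57 and 1.91 FPKM in control and 3.78, 3.23 and 3.66 in TgAPPsweOCN;Ai9 libraries (log2 fold change 1.24, edgeR adjusted p = 2.69e-05). Zfp658 (0.70) and Etfb (0.32) had adjusted p of 0.00195 and 0.00647 with smaller fold changes, and Vsig10l had a log2 fold change of -0.32 (adjusted p = 0.0839). The 3 tested genes nearest to Cd33 on either side, Zfp658, Zfp719 and Vsig10l, thus gave values of 0.70, 1.24 and -0.32 beside its own -1.49.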
